A study of Homo sapiens with 6 samples.

Results

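C-orf genes are human genes that were named only for the place where their open reading frame was found, with a symbol made of the chromosome and a serial number. The genes described here carry such a symbol (C, the chromosome, orf, the serial number) in both deposited tables, the one of translational efficiency and the one of ribosome occupancy along the transcript. This rule used no measured value. It gave 120 genes, of 8121 genes with a translational efficiency and 9570 transcripts with an occupancy profile. A further 29 C-orf genes were listed with a translational efficiency only and 42 with an occupancy profile only.

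The data were collected by ribosome profiling of HEK293 cells, a line derived from human embryonic kidney and transformed with adenovirus DNA. In this assay RNase I digests the mRNA that ribosomes do not cover, and the ribosome-protected fragments (RPFs) that remain are sequenced. There were 3 RPF libraries and 3 total RNA libraries, all from cells that the labels give as treated with control siRNA, and a part of each lysate was kept as total RNA before digestion. No other genotype, siRNA or treatment enters the comparisons, so each gene is compared with the other genes of the same cells. Cycloheximide, which arrests elongating ribosomes, was added before and during lysis. The methods describe the preparation as done in triplicate and do not spell out whether these were separate cultures, so p-values measure only the spread between these samples, which may be technical. Of 6 genes known from HEK293 cells (VIM, NEFM, NEFL, PAX2, KRT8 and KRT18), 5 were listed in at least 1 table. Both tables hold normalized values, so library totals, which the study gives for the RPFs, were not recomputed here. Because whole cultures were profiled, a lower ratio in part of the cells and a lower ratio in all cells cannot be told apart.

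A C-orf symbol is a placeholder. It is often replaced once a function, a complex or a protein family is known, so the group mixes genes that were later understood with genes that are still open reading frames of unknown role. Some members with a known role, such as C2orf49, keep the placeholder, so renaming does not divide known from unknown genes. Each mRNA is translated from a start codon that scanning ribosomes select, usually the first AUG in a favourable context with A or G at the third base before the AUG and G at the base after it. Short upstream frames and codons related to AUG can also take up ribosomes before the annotated start. All 120 symbols were found in the RefSeq gene table of the assembly GRCh38.p14, and all 120 lay on the chromosome that the symbol names. Of the genes 66 now carry another symbol there and 54 keep the placeholder, and current symbols are given here in brackets. C17orf51 now carries LINC02693, the symbol of a long non-coding RNA.

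Sequences at the ends of the range of translational efficiency are shown first, as 12 bases before the annotated start codon, the start codon in capitals and 6 bases after it. They are given for the 2 members at the top of that range and the 2 at its bottom, and were read from the GRCh37 genome at the GENCODE transcript with the same CDS length. C4orf32 lies at chr4:113066725-113066745 on the plus strand, C14orf1 at chr14:76123837-76123857, C9orf69 at chr9:139008738-139008758 and C6orf62 at chr6:24718888-24718908, the last 3 on the minus strand.
C4orf32: gttggctgcgggATGtgctca
C14orf1: ttgaggggagtcATGagccgt
C9orf69: cgccggggcccaATGccggtc
C6orf62: ctgtatttcaaaATGggggac
Both members with the highest values have G at the third base before the ATG and no G after it. C6orf62, near the bottom, has A and G at these positions, and C9orf69 has neither a purine nor G. Among the members with a matched transcript (all but 8), 85.7% had A or G at the third base before the ATG and 57.1% had G after it. Over the 9127 transcripts of the table that could be read these shares were 85.9% and 53.2%. The 4 starts shown do not stand for the members as a whole. The 54 members with both bases had a median translational efficiency of 0.452, with 27 called higher than the median of all values and 20 lower. The 42 with A or G before and another base after had 0.308, with 18 and 22. The 16 with C or T before had 0.408, with 7 and 7 (all genes 44.7% and 44.6%). A link with context was not tested.

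Translational efficiency, the deposited ratio of RPFs to total RNA, spread over a 217-fold range among the C-orf genes. The median of the 120 means over replicates was 0.393, with quartiles of 0.203 and 0.9002. All 8121 genes had a median of 0.385 and quartiles of 0.198 and 0.825. Each gene was tested against the median of all values with limma on log2(value + 0.01), a scale that understates the change of low ratios. Of the 120 genes 55 were higher than the median, 52 were lower and 13 were not called at an FDR of 0.05 with Benjamini-Hochberg adjustment over all genes. In all 107 of 120 were called, beside 89.3% of all genes tested. The share called higher was 45.8% (all genes 44.7%) and the share called lower 43.3% (all genes 44.6%). With a difference of at least 2-fold asked for as well, 36 members or 30% were higher (all genes 26.5%) and 27 members or 22.5% were lower (all genes 23.3%). The count of 27 fell to 14 with a pseudocount of 0.1. The 55 higher and 52 lower genes became 49 and 60 when the mean of all genes served as the reference. The 3 replicates ranked the members alike, with Spearman coefficients of 0.976, 0.976 and 0.978 over the 120 genes, and 8 members had replicates on both sides of the median.

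**Figure D1:**
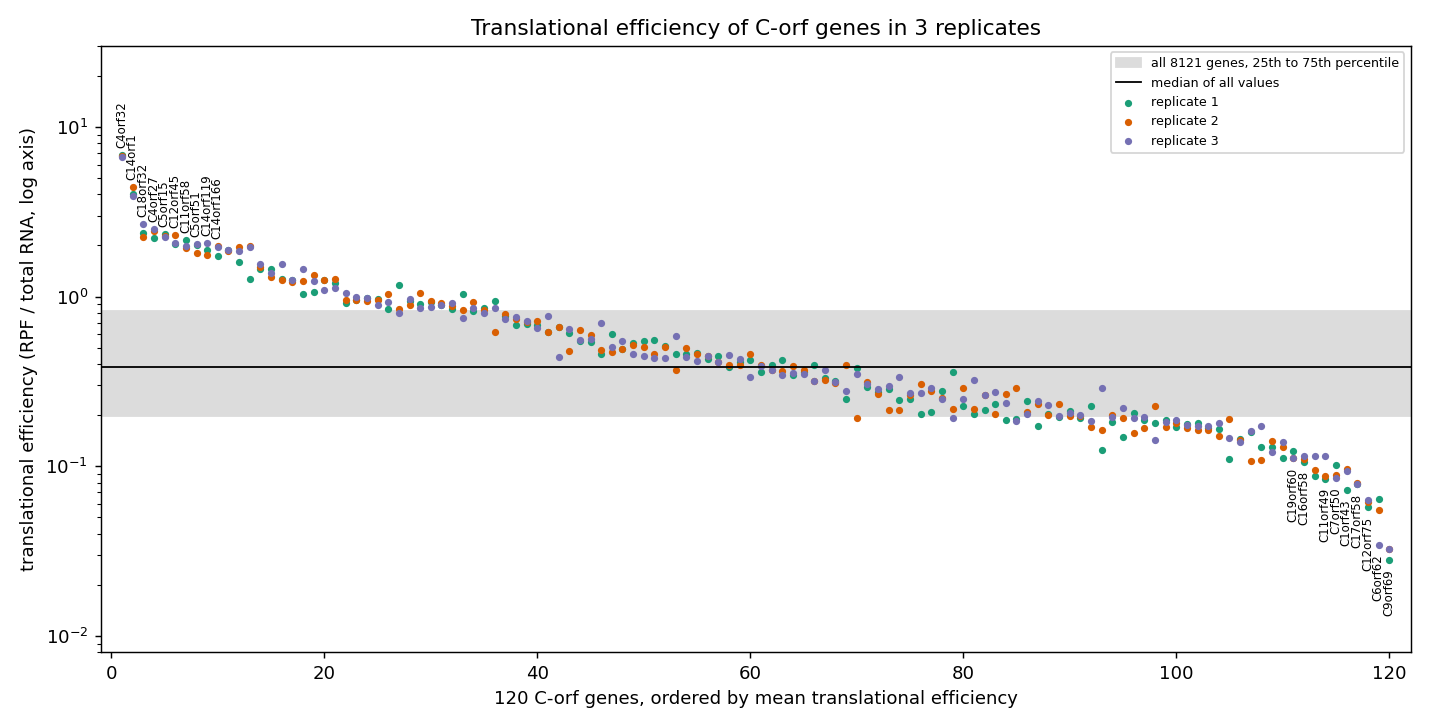
Translational efficiency (RPF to total RNA, log axis) of the 120 C-orf genes in each of the 3 replicates, ordered from the highest to the lowest mean, with the median of all values (0.383) as a line and the 25th to 75th percentile of all 8121 genes as a band. The members run from 6.73 for C4orf32 to 0.0310 for C9orf69, and the replicates of the labelled genes at either end stay apart from the median.

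C4orf32 (FAM241A) had the highest translational efficiency, with 6.82, 6.73 and 6.63 in replicates 1 to 3. Its 3 values lay close together and above every value of the other members. The log2 difference from the median was 4.10 ± 0.05 (SE, n = 3; limma, adjusted p = 9.21e-07). C14orf1 (ERG28), a membrane protein of the endoplasmic reticulum that holds enzymes of sterol synthesis together, had 4.03, 4.40 and 3.89. It differed by 3.39 ± 0.06 (SE, n = 3; limma, adjusted p = 1.36e-06). C4orf27 (HPF1), the factor with which PARP1 modifies serine residues at DNA breaks, had 2.21, 2.42 and 2.49. C12orf45 (NOPCHAP1), a chaperone of snoRNP assembly, had 2.05, 2.29 and 2.06. C5orf51 (RIMOC1), a subunit of the complex that activates RAB7, had 2.00, 1.81 and 2.05. C14orf166 (RTRAF), a subunit of the tRNA ligase complex, had 1.72, 1.99 and 1.97. These 4 genes were above the median in each replicate, and in this order the ranges of neighbours overlapped. C18orf32 had 2.36, 2.25 and 2.66, C5orf15 had 2.33, 2.28 and 2.26, C11orf58 had 2.15, 1.92 and 1.97, and C14orf119 had 1.89, 1.77 and 2.05. All 10 were called higher (limma, largest adjusted p = 3.71e-06 for C14orf166). A total of 21 of the 120 members exceeded a ratio of 1 in every replicate, beside 18.4% of all genes.

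Some of these genes share sequence with others, and reads that fit both could be counted for either. For C18orf32 100% of the 30-base stretches of the CDS also occur in the overlapping readthrough gene RPL17-C18orf32. For C11orf58, C4orf27, C14orf166 and C5orf15, 36.3%, 34.4%, 17.8% and 16.1% of them occur in genes elsewhere. The main matches of C14orf166 are named as pseudogenes (RTRAFP1 and RTRAFP2), and those of C11orf58, C4orf27 and C5orf15 have no gene symbol. Whether such entries were in the transcriptome that the authors aligned to was not checked. The 14 members with 5% or more in genes elsewhere had a median translational efficiency of 0.874, and 9 of them were higher and 4 lower (all genes 44.7% and 44.6%). The 98 matched members under 5% had a median of 0.368, with 43 higher and 45 lower. Separately, 13 members had 20% or more of these stretches in an overlapping gene, with a median of 0.377, 6 higher and 6 lower. Among them are C7orf55 (73.8%) and C9orf114 (100%), described below by role. C4orf32, C14orf1, C12orf45 and C5orf51 shared none, and of the lowest genes described next C17orf58 shared 21.1%. How far shared sequence moves these ratios was not tested.

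C9orf69 (TMEM250) had the lowest translational efficiency, at 0.0281, 0.0325 and 0.0325. The ratio was low in every replicate and the mean lay at percentile 0.160 of all genes. The log2 difference was -3.26 ± 0.06 (SE, n = 3; limma, adjusted p = 1.45e-06). C6orf62 followed with 0.0643, 0.0555 and 0.0345, of which the value of replicate 3 stood below the others. C12orf75 had 0.0572, 0.0614 and 0.0631, and C17orf58 had 0.0784, 0.0798 and 0.0787. C6orf62 and C12orf75 overlap in their replicates, while C17orf58 was above both in all of them. Only 36 in-frame CDS reads stood behind C17orf58 in the occupancy profile. Its deposited 5′UTR held 138 more, on a stretch that, as read from the annotation, another isoform lists as coding in the same frame. How far this choice of transcript lowers its ratio was not tested. C1orf43 (LTAP1) had 0.0721, 0.0963 and 0.0937, and C7orf50 (CHLSN) had 0.101, 0.0886 and 0.0851. C11orf49 (CSTPP1), a regulator of tubulin polyglutamylation at centriolar satellites, had 0.0843, 0.0870 and 0.114. C16orf58 (RUSF1) had 0.106, 0.111 and 0.115, and C19orf60 (REX1BD) had 0.122, 0.112 and 0.112. Neighbours in this order given here overlapped from C1orf43 to C19orf60. These members were all called lower (limma, largest adjusted p = 3.37e-05 for C6orf62). Close to the median was C17orf75, with 0.394, 0.369 and 0.371 and an adjusted p of 0.723 (limma).

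The spread between replicates was 0.106 on the log2 scale (median SD, n = 3) for the members and 0.101 for all genes. It was largest for C15orf57 (CCDC32), a factor in the assembly of the endocytic adaptor AP2, with 0.125, 0.163 and 0.289, an SD of 0.59. C19orf25 had 0.380, 0.193 and 0.349, and was not called (limma, adjusted p = 0.134). C11orf96 had 0.357, 0.218 and 0.191 and was called lower (limma, adjusted p = 0.0216), a call that was lost without replicate 2 (adjusted p = 0.0824) or replicate 3 (adjusted p = 0.0674). C16orf13 (METTL26) had 0.110, 0.190 and 0.146, with each value under the median. Only 95 in-frame CDS reads stood behind C11orf96 and 221 behind C19orf25 in the 3 libraries together, beside a median of 1219 for the members.

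Members with a known role were grouped by lists of C-orf genes. Of 32 listed mitochondrial genes 10 were members, and 7 of these were higher, 2 lower and 1 not called, with a median of 0.546, beside 44.7% higher and 44.6% lower over all genes. C7orf55 (FMC1), which assembles the ATP synthase, had 1.25, 1.25 and 1.09. C2orf69 had 0.964, 0.958 and 0.890, and C14orf2 (ATP5MJ), a small membrane subunit of the ATP synthase, had 0.930, 0.935 and 0.867. These 3 were above the median in each replicate. C19orf70 (MICOS13), a subunit of the complex that shapes cristae, had 0.186, 0.265 and 0.236, and C5orf63 had 0.244, 0.213 and 0.336. Both were lower, with adjusted p of 0.00143 and 0.0113 (limma). C12orf65 (MTRFR), a rescue factor of stalled mitochondrial ribosomes, was the one not called, at 0.386, 0.396 and 0.455.

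RNA processing and ribosome biogenesis held 12 members of 21 listed, of which 8 were higher, 3 lower and 1 not called, with a median of 0.698 (all genes 44.7% higher and 44.6% lower). The higher genes were C12orf45 and C14orf166, described above, C2orf49, another subunit of the tRNA ligase complex, C9orf114 (SPOUT1), C9orf78, C1orf131 (FSAF1), C8orf59 (RBIS) and C9orf64 (QNG1). C2orf49 had 1.60, 1.96 and 1.87, a range that overlapped with that of C14orf166, although it was lower in each replicate. C3orf17 (RMP64) was lowest with 0.112, 0.130 and 0.140. C1orf109 (AIRIM), a factor of late ribosome maturation, had 0.242, 0.208 and 0.203, and C7orf26 (INTS15), a subunit of the Integrator complex, had 0.204, 0.306 and 0.270. All 3 lay under the median in each replicate. C7orf60 (SAMTOR), the S-adenosylmethionine sensor upstream of mTORC1, had 0.345, 0.390 and 0.356 and was not called. That role lies outside the name of the list, but the counts and the median above include the gene. The list is not complete. C18orf21 (RMP24), with 0.492, 0.491 and 0.546, is outside it and was higher. So is C12orf29 (RLIG1), an RNA ligase, which was higher with 0.822, 0.925 and 0.854. C12orf10 (MYG1), an RNA exonuclease, is also outside it and was lower, with 0.196, 0.233 and 0.198. Genes outside the list were not searched in full.

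Membrane traffic had 6 members of 15 listed, with 3 higher and 3 lower (all genes 44.7% and 44.6%). C5orf51 and C10orf76 (ARMH3), a Golgi protein that works with a phosphatidylinositol kinase, were highest, and C10orf76 had 1.27, 1.26 and 1.55. C20orf24 (RAB5IF) had 0.202, 0.2003 and 0.229 and was lower, as was C16orf62 (VPS35L), a subunit of the Retriever complex for endosomal recycling, with 0.316, 0.308 and 0.312. Both cilium members of 16 listed were lower. C9orf116 (PIERCE1), a protein inside ciliary microtubules, had 0.177, 0.168 and 0.174, and C11orf74 (IFTAP), which binds intraflagellar transport proteins, had 0.130, 0.109 and 0.172. Members outside that list whose names refer to cilia or centrosomes went both ways. C15orf65 (PIERCE2), with 1.16, 0.848 and 0.795, and C20orf194 (DNAAF9), with 0.613, 0.478 and 0.647, were higher. C3orf14 (CEP15), C11orf49 and C11orf1 (CFAP68), the last with 0.203, 0.217 and 0.323, were lower. Of the 15 genes listed for DNA repair C4orf27 and C7orf49 (CYREN), an inhibitor of end joining, were members, and C7orf49 was not called (0.396, 0.318 and 0.318). C20orf196 (SHLD1), a subunit of the shieldin complex of double-strand break repair, is outside the list and was higher, with 0.456, 0.486 and 0.699 (limma, adjusted p = 0.0184). Renamed genes as a whole counted 29 higher, 30 lower and 7 not called (median 0.373), and genes with the placeholder 26, 22 and 6 (median 0.414). The 38 renamed genes in no list had 13 higher and 21 lower, with a median of 0.270. The lists were drawn up with results of these data known, and no test was made of them.

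**Figure D2:**
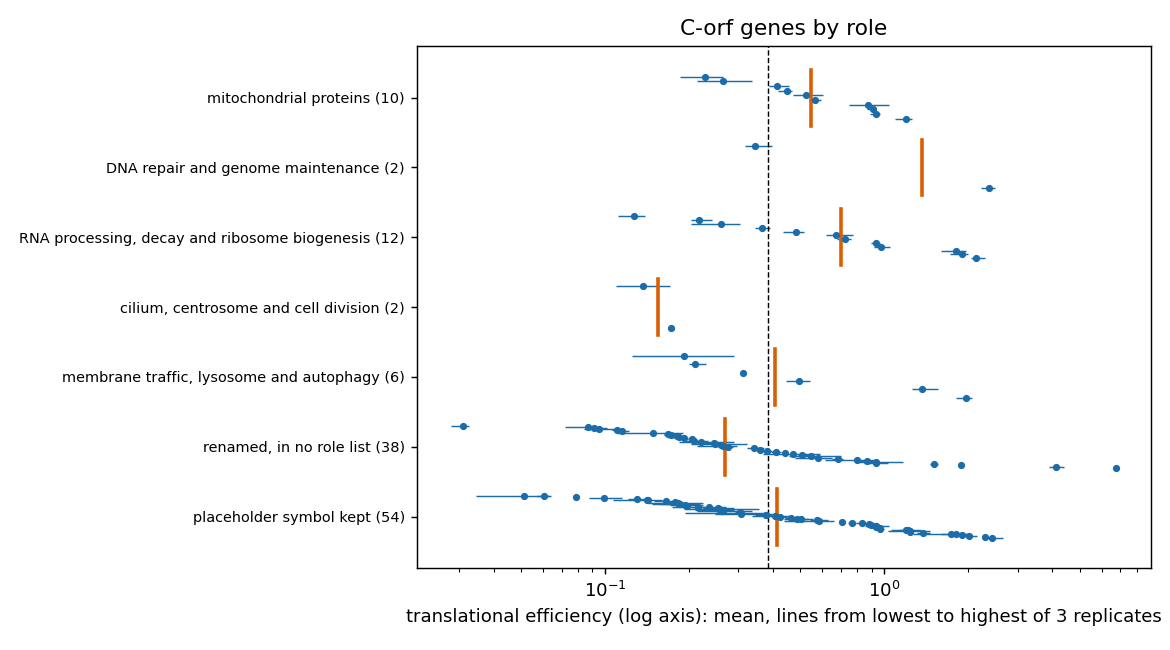
Translational efficiency (log axis) of C-orf genes by role, as the mean with a line from the lowest to the highest of 3 replicates. Orange bars are the medians of the groups, among them 0.546 for mitochondrial genes, 0.698 for RNA processing and 0.270 for renamed genes in no list. The dashed line is the median of all values, and a gene with the placeholder symbol can also stand in a role group.

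C-orf proteins were short. The CDS had a median of 217 codons (quartiles 133 and 330.5), beside 448 codons for all transcripts. The shortest members were C1orf122 with 48 codons, C14orf2 with 59 and C12orf75 with 64. Their ratios lay far apart, with means of 0.182, 0.911 and 0.0606. C20orf194 (DNAAF9) with 1178 codons, C16orf62 with 1053 and C15orf39 with 1048 were the longest. The 10 members of at most 100 codons had a median translational efficiency of 0.573, the 45 of over 100 up to 200 codons 0.412, the 49 of over 200 up to 400 codons 0.410 and the 16 longer ones 0.350. The rank correlation with CDS length was -0.04 over the 120 genes and -0.26 over the 6912 genes in both tables, each given as a description over genes of the same libraries.

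Ribosome occupancy is the second deposited measure. It holds in-frame footprints per codon, scaled to library size and divided by the TPM of the transcript, with the replicates combined, so it has no replicate error. Mean CDS occupancy had a median of 0.0493 for the members and 0.0450 for all 9570 transcripts. It was highest for C11orf58 (0.280), C18orf32 (0.239), C8orf59 (0.223), C12orf73 (UQCC6), a small assembly factor of respiratory complex III (0.213), and C3orf14 (CEP15) (0.185). It was lowest for C9orf69 (0.00365), C17orf58 (0.00418), C6orf62 (0.00429), C9orf16 (BBLN) (0.00905) and C19orf25 (0.0115). The first 3 of these were also among the 4 lowest in translational efficiency. C3orf14 stood high in occupancy and low in translational efficiency, with 0.214, 0.263 and 0.261. Both measures rest on the same footprints and total RNA. Their rank correlation was 0.586 over the 120 members and 0.688 over 6912 genes.

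**Figure D3:**
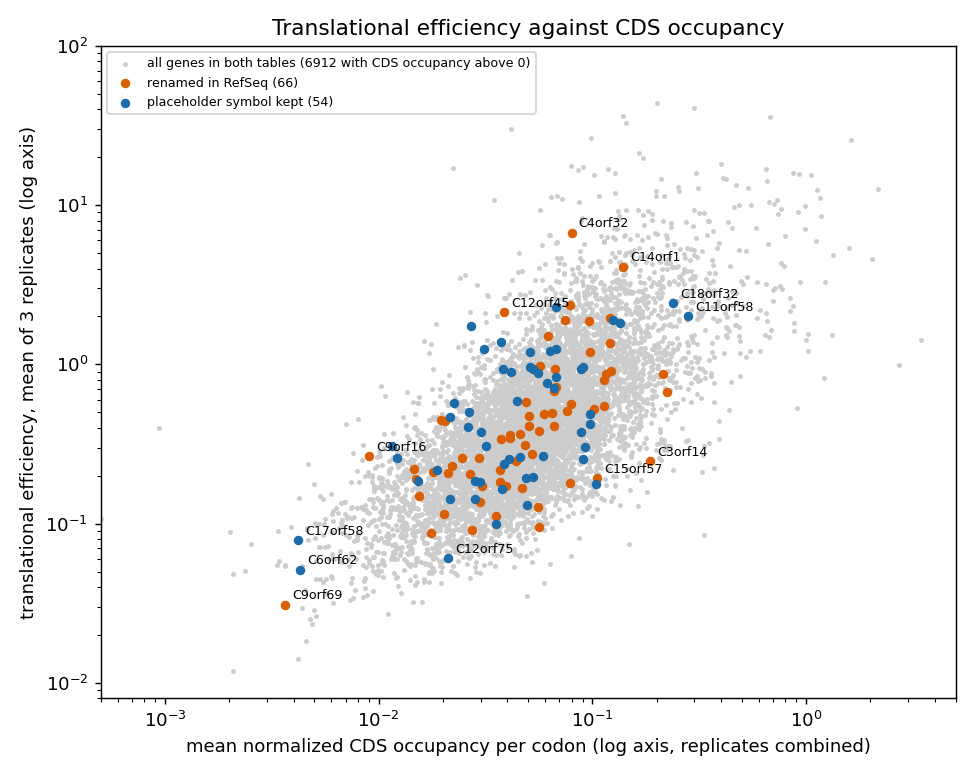
Mean translational efficiency of 3 replicates against mean CDS occupancy with replicates combined, both on log axes, for all 6912 genes in both tables in grey, for the 66 renamed members in orange and for the 54 with the placeholder symbol in blue. C9orf69, C17orf58 and C6orf62 lie at the lower left, and C3orf14 has an occupancy of 0.185 with a mean translational efficiency of 0.246.

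The occupancy values of a transcript are whole-number sums of 3 steps, 1 for each library, and reads could be recovered from them for all 120 members. The in-frame CDS reads of a member ranged from 36 to 25653, and 3 members had fewer than 100. In all 48.5% of the members' reads lie in values too high to resolve and are estimates. Intervals on shares of reads are exact Clopper-Pearson intervals at 95% and, with floors, cover counting error only.

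Footprints in the 5′UTR in the frame of the CDS were measured for the 102 members with at least 17 such codons. The ratio of 5′UTR to CDS occupancy had a median of 0.0351 beside 0.0353 for all transcripts. It was at least 0.2 in 16 of the 102 members (all transcripts 17.5%) and at least 1 in 2 members (all transcripts 2.66%). No in-frame 5′UTR read was found in 15 members, where up to 3 reads would be possible. The ratio was highest for C17orf58 (2.95), C5orf63 (1.79), C1orf21 (0.876), C15orf39 (0.683) and C9orf91 (TMEM268) (0.552).

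C1orf21 had 252 in-frame 5′UTR reads and 227 CDS reads, so 52.6% of them (interval 48.03% to 57.2%) lay before the annotated start. It is a member with a high translational efficiency of 1.20, 1.27 and 1.13. An in-frame ATG lies 21 codons before the start and is followed by a TAG stop 5 codons later. The first window below shows that short frame in capitals, from ATG to stop, at chr1:184446569-184446598. The second shows in capitals the GTG codon with the most in-frame 5′UTR reads, 31 codons before the start, at chr1:184446539-184446565. Both are on the plus strand of GRCh37, each in 1 exon of the 5′UTR.
C1orf21, upstream ATG: taaagaaaaaaaATGTCCCTGTGTCTGTAG
C1orf21, GTG codon: ctcagcagcaagGTGgattttctttgt
The ATG held 66 reads and the CTG codon 2 positions on held 43. The 5 codons from the ATG to the last one before TAG held 135 of the 252 reads (53.6%, interval 47.2% to 59.9%), and the TAG held 0. The GTG held 68 reads. An in-frame TAA with 0 reads, 25 codons before the start, lies between the GTG and the ATG. The codons between the TAG and the annotated start held at most 1 read each.

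C17orf58 had 138 in-frame 5′UTR reads and only 36 CDS reads, a share of 79.3% (interval 72.5% to 85.1%) before the start. The 101 in-frame codons of its 5′UTR hold no stop, and all lie in the CDS of another annotated isoform in the same frame. The reads began 44 codons before the annotated start. The codon with the most reads is a CTG 42 codons before it, in capitals below, at chr17:65989562-65989588 on the minus strand, with 20 reads.
C17orf58, CTG codon: tgccggtccgatCTGgacgaacgcgag
C1orf122 likewise had 417 in-frame 5′UTR and 415 CDS reads. The 51 codons nearest to its start are CDS of another isoform in the same frame and held 294 of the 417 (70.5%, interval 65.9% to 74.8%). In both genes the deposited 5′UTR, if it follows the annotated sequence there, thus holds a stretch that the annotation also lists as coding.

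C15orf39 had 2953 reads in its CDS, and 119 of its in-frame 5′UTR reads (83.8%, interval 76.7% to 89.4%) lay on 5 codons, 38 to 34 codons before the start. Those codons could not be read, since the annotated transcripts with this start codon share only the nearest 17 codons of the 5′UTR. C5orf63 had 85 reads before the start and 119 after it, and its 5′UTR has 2 in-frame stops, the nearest 18 codons before the start. Reads lay on both sides of them. C8orf88 had 143 of 239 5′UTR reads (59.8%, interval 53.3% to 66.1%) on the codon 7 before the start. C7orf49 had 196 in-frame 5′UTR reads and 695 CDS reads, with 55 on the codon 41 before the start.

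**Figure D4:**
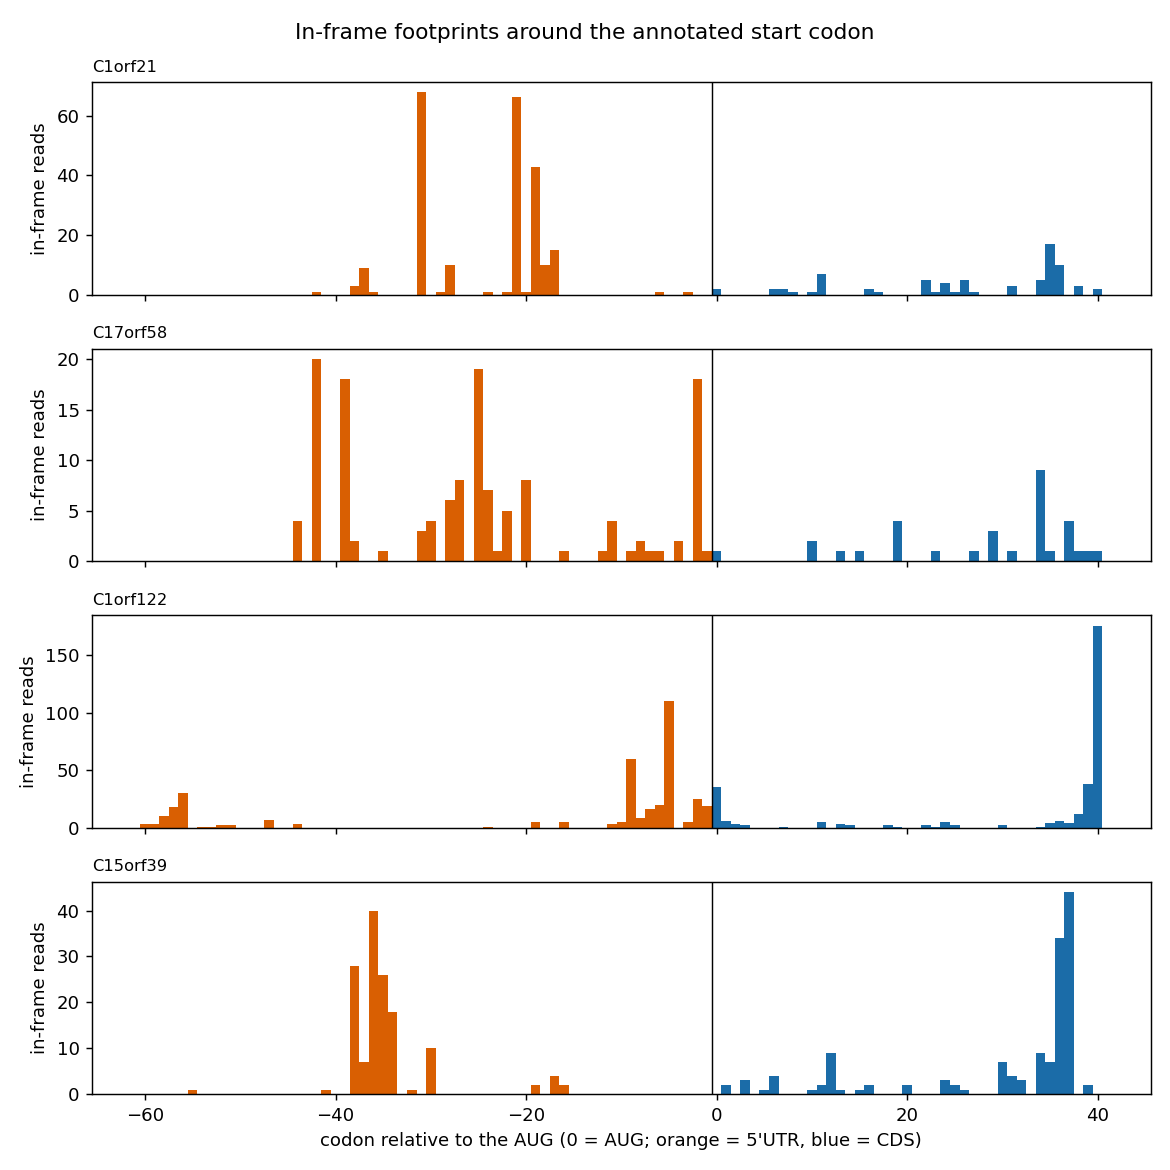
In-frame reads per codon from 60 codons before to 40 codons after the annotated start (0 is the AUG), with 5′UTR codons in orange and CDS codons in blue, replicates combined and no error. C1orf21 shows peaks of 68 and 66 reads at 31 and 21 codons before the start, the reads of C17orf58 begin 44 codons before it, C1orf122 rises to 110 reads at 5 codons before it, and 119 reads of C15orf39 lie in one cluster.

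In-frame footprints after the stop codon were rare. The ratio of 3′UTR to CDS occupancy had a median of 0.000645 for the members and 0.000181 for all transcripts. The highest values were those of C17orf58 (0.121), C19orf24 (FAM174C) (0.0434), C15orf40 (0.0400), C7orf49 (0.0332) and C15orf65 (PIERCE2) (0.0206), the last from 2 reads. In C19orf24 all 39 reads lay in the CDS of another annotated transcript, in the same frame over 133 codons. In C15orf40 65 of 74 reads (87.8%, interval 78.2% to 94.3%) lay in 30 codons from the codon 205 after the stop, where no other CDS is annotated. In C7orf49 24 reads lay in another CDS, and 75 in 30 codons from codon 157.

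Along the CDS, the ratio of the first to the last 75 codons had a median of 0.828 over 110 members (all transcripts 0.980). It was at least 2 in 19 members or at most 0.5 in 29, beside 19.4% and 22.5% of all transcripts. In short frames both windows share codons, and members had shorter frames (median 217 codons, all transcripts 448). These medians and shares are therefore not compared like for like. C20orf24 had the highest ratio, 8.03, and 1527 of its 1715 reads (89.04%, interval 87.5% to 90.5%) lay on the first 75 of 144 codons. The overlapping readthrough gene TGIF2-RAB5IF shares 64.8% of its CDS stretches of 30 bases. C19orf44 (5.90) and C15orf39 (4.80) followed.

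C16orf62 had the lowest ratio, since none of its 3934 in-frame reads fell on the first 84 of 1053 codons, which allows a share of up to 0.0763%. The frame holds ATG codons at positions 1, 21 and 73 and next at 90. Before position 90 there were 3 reads and from it on 3931, with 9 on the ATG itself. That ATG is in capitals below, at chr16:19567040-19567066 on the plus strand, in 1 exon of the annotated CDS.
C16orf62, codon 90: gtgactgggaagATGgccgtctttcct
C9orf69 had no read on its first 41 of 140 codons, with 167 reads in all, which allows up to 1.80%, and its first reads lay at codon 42, where there is no ATG. C22orf39 had none of its 173 reads on the first 37 codons. These were the 3 members with 30 or more empty codons at the start, 3 of 120, beside 3.33% of all transcripts. In C19orf24 (0.0626) and C19orf60 (0.118) reads were also few in the first codons. C19orf60 had 693 of 846 reads (81.9%, interval 79.2% to 84.5%) on the last 75 of 202 codons. The translational efficiency of C19orf24, 0.430, 0.444 and 0.444, was higher than the median (limma, adjusted p = 0.0130), a call lost without replicate 2 (adjusted p = 0.0664) or 3 (adjusted p = 0.0598).

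Single codons carried more of the footprints in C-orf genes than in all transcripts, with medians of 7.77% and 4.95% for the highest codon, and C-orf frames are shorter. The share was at least 20% in 5 members, beside 2.61% of all transcripts. C1orf122 had 176 of 415 reads (42.4%, interval 37.6% to 47.3%) on codon 41 of 48. C19orf60 had 260 of 846 (30.7%, interval 27.6% to 33.96%) on codon 195 of 202, and C11orf96 22 of 95 (23.2%, interval 15.1% to 32.9%) on codon 113 of 123. In these 3 the codon lay in the last 11 codons of the frame. In the other two it did not, with 44 of 167 reads (26.3%, interval 19.8% to 33.7%) on codon 48 of 140 in C9orf69, and 9 of 36 (25%, interval 12.1% to 42.2%) on codon 35 of 76 in C17orf58. For C1orf122 and C11orf96 the codon is in capitals below, on the plus strand at chr1:38274710-38274736 and chr11:43964779-43964805.
C1orf122: ccaaaggatgctGGCgatggagctgcg
C11orf96: ctgaggaacagcCTGgactccagcgac
These codons differ, GGC being for glycine and CTG for leucine. The highest codon of C17orf58 was GGT, also for glycine, and that of C9orf69 was CGC, for arginine.

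**Figure D5:**
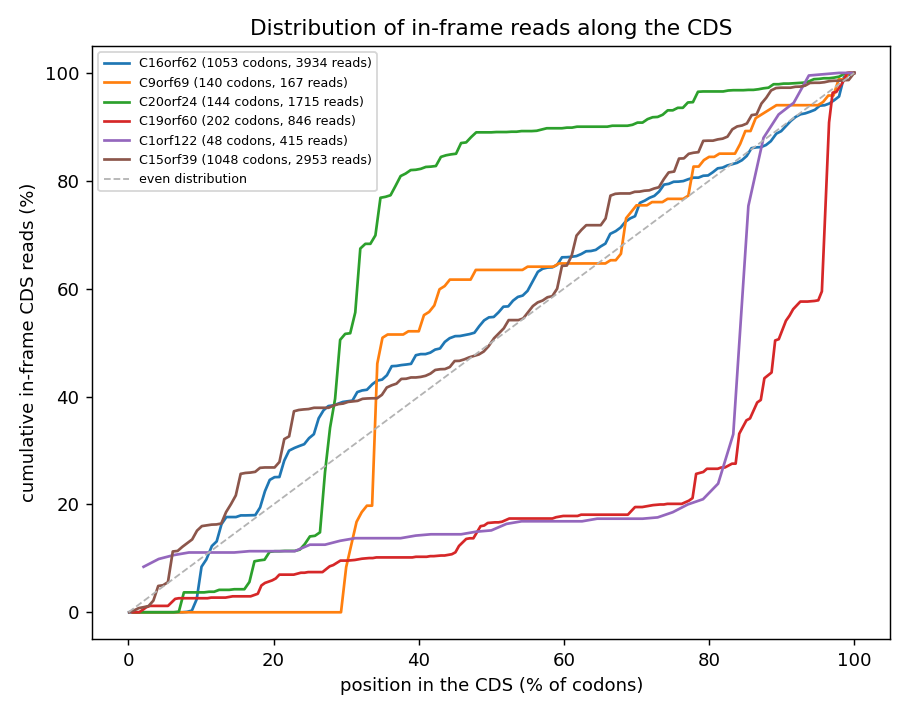
Cumulative share of in-frame CDS reads (%) against position in the CDS (% of codons) for 6 members, replicates combined and no error, with an even distribution as a dashed line. C16orf62 stays at 0 over its first 84 codons and C9orf69 over its first 41, C20orf24 reaches 89.04% by codon 75, and C19orf60 and C1orf122 rise near the end.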

How the data were processed

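RPF reads were trimmed by the authors with Cutadapt, cleared of PCR duplicates with cd-hit-dup and aligned to the hg19 transcriptome with bowtie, and total RNA was counted per gene. The methods name Hisat2 for total RNA, whereas the submitters' processing notes list TopHat2 2.1.1, with cutadapt 1.16, Bowtie 1.1.2 and HTSeq 0.9.1. The deposited translational efficiency is, per replicate, the ratio of the RPF value of a gene to its total RNA value. No source used here states its formula. Occupancy, as deposited, is a normalized RPF signal per codon, divided by TPM, for the most abundant transcript of a gene, replicates combined.

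In R 4.3.3, limma 3.58.1 tested whether log2(value + 0.01) of a gene differed from the median over all genes and replicates, with no filter on low values and Benjamini-Hochberg adjustment at an FDR of 0.05 over 8121 genes. On simulated data of the same 8121 genes, 56% of 100 genes moved by 0.5 on the log2 scale were called, and 89% of 100 moved by 1. Of these 0 had the wrong sign, and 13 unmoved genes were also called. All unmoved genes were simulated at the median, whereas 89.3% of the real genes were called. These shares therefore do not describe the calls given above. RPF and total RNA of 1 number share a lysate, so the pairing is inside the ratio. Reads were recovered from occupancy steps up to 60 times the smallest one (relative tolerance 1e-08). In 120 simulated transcripts 94.2% were solved, with a largest error of 1.20% in the total. Members were matched to GENCODE 44 on GRCh37 by CDS length (112 of 120, of which 4 also had the deposited 5′UTR length). Codons before the start were read only as far as the GENCODE transcripts with the same start codon agree in sequence. The deposited profile holds no sequence, so these letters were not checked against it. Symbols came from RefSeq.

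Named members are the 10 highest and 10 lowest called ratios, the 5 highest 5′UTR and 3′UTR ratios, the 5 highest and lowest occupancies, the 3 shortest and longest frames, the 5 largest SDs, extremes of the window ratio and of the highest codon, the 2 highest and lowest of each role list and those nearest the median. C8orf88, C22orf39, C17orf51 and other genes outside it were named after their values were seen. Members, lists and rules were chosen with earlier results of these data known. A few items that these rules select are not reported here.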

Additional observations from a re-analysis of the deposited data

How the results depend on the processing

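Of 589 values recomputed under alternatives 573 stayed on their side of the threshold or within their limits, 6 moved, 5 lost a call and 5 gained one, and 0 changed direction. The 27 members lower by at least 2-fold became 14 with a pseudocount of 0.1. The median translational efficiency was 0.405 with at least 100 reads. The median CDS occupancy was 0.0106 as a median over codons. The median 5′UTR ratio was 0.0194 without the 5 codons next to the start codon and 0.0572 for 5′UTRs of at least 33 codons, and the median 3′UTR ratio 0.000460 without the 5 codons next to the stop codon. The cause of these moves was not tested.

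Leaving out each replicate gave 54 members higher and 51 to 52 lower, 35 to 36 and 25 to 26 with a 2-fold difference, a median of 0.383 to 0.395, and 3528 to 3552 of all genes higher and 3470 to 3539 lower. With a replicate block, each replicate centred on its own median, 55 members were higher and 52 lower, as without it, and 3639 and 3626 of all genes. With the mean as the reference C19orf24 lost its call, and 4 members gained a call of lower, among them C7orf49, C19orf25 and C17orf75, and C7orf49 also gained it without replicate 1. An alternative chosen after seeing the data kept the 83 members with under 5% of their CDS stretches in any other gene, and 42.2% were higher and 46.99% lower. Occupancy has no replicate error, and its reads limit single codons most.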

Other observations

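The 29 C-orf genes listed with a translational efficiency only had a median of 0.376 and a range of 0.102 to 4.61. Of these 11 were higher than the median of all values, 14 lower and 4 not called (limma, FDR of 0.05, beside 44.7% and 44.6% of all genes). The 42 C-orf genes with an occupancy profile only had a median CDS occupancy of 0.0237, beside 0.0493 for the 120 genes in both tables.

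C17orf51, listed in RefSeq as the long non-coding RNA LINC02693, had a translational efficiency of 0.680, 0.714 and 0.648 in the 3 replicates and 1400 in-frame reads over a deposited frame of 222 codons, with a mean occupancy of 0.0664. All 3 ratios lay above the median of all values (limma, adjusted p = 6.33e-05). No GENCODE transcript had a CDS of its length, so no sequence was read. A read on the start codon itself was found in 65 members, 54.2% of them, beside 59.7% of all transcripts.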
